A study of Mus musculus with 45 samples.

Results

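Before any factor is depleted, the lines of a degron study already differ from each other, and the 4 libraries described here measure how much. They are the untreated (NT) ATACseq libraries of OCT4-FKBP and of SOX2-FKBP mouse embryonic stem cells (mESCs), 2 replicates of each, chosen by their labels out of 45 samples in the series. ATACseq counts the places where the transposase Tn5 can cut, so more fragments in a peak mean a more accessible, or open, chromatin region. The 27 libraries of the 3 degron lines (SOX2-, OCT4- and NANOG-FKBP, untreated or 2, 6 and 24 h after the degrader dTAG-13) were fitted together, and 166430 of 184964 counted peaks had enough counts to be tested.

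The OCT4-FKBP cells are V6.5 mESCs that were made in another laboratory, with the FKBP degron on OCT4. The SOX2-FKBP cells are E14 (IB10) mESCs, of 129/Ola origin, with FKBP, a hemagglutinin tag, a P2A peptide and a fluorophore knocked in at the end of the SOX2 gene. V6.5 was derived from a cross of C57BL/6 and 129 mice, and the mm10 reference to which all reads were aligned is C57BL/6J. The study's methods describe growth on gelatin without serum, with LIF and inhibitors of MEK and GSK3, for the E14 lines. They name no separate medium for the V6.5 cells, so whether the culture was the same is not stated. NT cells received the solvent DMSO. Line background, tagged gene, laboratory of origin, clone and the distance of a genome from the reference differ together between the groups, so they cannot be told apart here. Nothing in the labels says whether the replicates are separate cultures, so all p-values measure only the spread between these libraries, which may be technical. The study's methods name duplicates and, for SOX2, another independent clone, but the labels do not say which library is which. The OCT4-FKBP replicates differed from each other on chromosome 6 at all times, as given below.

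Embryonic stem cells held in these inhibitors are in the naive state, in which the genes of OCT4, SOX2, NANOG, KLF4 and ESRRB are active and the genes of later lineages are kept silent. Many of those silent genes, the Hox clusters among them, have promoters rich in CpG that carry repressive histone marks and stay partly accessible. Distal peaks are mostly enhancers, where transcription factors bind short DNA motifs, such as TCAAGGTCA for the orphan nuclear receptor ESRRB.

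The total counts in peaks were 12917698 and 17575631 in OCT4-FKBP and 10531404 and 6479369 in SOX2-FKBP. Between 99.6% and 100% of all peaks had at least 1 count in each of these libraries. The share of counts in promoter peaks was 35.6% to 37.9% in OCT4-FKBP and 32.3% to 32.7% in SOX2-FKBP, and the mean GC content of the counted fragments' peaks was 53% to 53.4% against 52.5% in both SOX2-FKBP libraries. All 8 promoters of the mESC marker list had a tested peak, and none of the 8 was called different. Of all promoters of protein-coding genes 16.7% were called higher in OCT4-FKBP and 4.8% lower, so few calls would be looked for among 8. In bulk libraries, fewer cells with an open site and a less open site in every cell cannot be told apart. Values below are normalized counts, scaled by the counts of peaks outside chromosomes 6 and 8, and a fold change is OCT4-FKBP NT over SOX2-FKBP NT on the log2 scale.

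The sequences of 10 regions are shown, chosen after the values were seen, since they carry the 3 main kinds of difference; each is the 201 bases around the peak summit on the plus strand of mm10. In the first set, 4 distal peaks that were lower in OCT4-FKBP hold the ESRRB letters, TCAAGGTCA or its reverse complement, which are in capitals. These are the 4 with the largest loss among such peaks without an annotated exon in the window.
Intron of Rab3il1, chr19:10013211-10013411: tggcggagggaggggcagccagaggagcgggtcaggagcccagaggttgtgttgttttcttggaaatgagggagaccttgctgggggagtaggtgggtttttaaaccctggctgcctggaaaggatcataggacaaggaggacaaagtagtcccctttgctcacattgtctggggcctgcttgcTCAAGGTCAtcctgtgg
Intron of Gm47089, chr9:13540764-13540964: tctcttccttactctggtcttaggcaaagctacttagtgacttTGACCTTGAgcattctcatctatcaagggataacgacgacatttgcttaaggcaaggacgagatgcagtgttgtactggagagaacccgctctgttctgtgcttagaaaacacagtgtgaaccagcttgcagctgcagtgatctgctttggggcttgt
Intron of 2610035D17Rik, chr11:113074425-113074625: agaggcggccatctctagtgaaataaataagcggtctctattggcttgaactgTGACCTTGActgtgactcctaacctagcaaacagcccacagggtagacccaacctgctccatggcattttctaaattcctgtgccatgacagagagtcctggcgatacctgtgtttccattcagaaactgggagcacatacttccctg
Intron of Angptl2, chr2:33226043-33226243: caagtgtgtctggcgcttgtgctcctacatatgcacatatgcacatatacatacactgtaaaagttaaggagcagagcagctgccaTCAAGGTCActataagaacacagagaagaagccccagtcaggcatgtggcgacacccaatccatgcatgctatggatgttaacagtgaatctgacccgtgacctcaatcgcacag

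The second set holds 3 peaks that were open in OCT4-FKBP and had at most 3 counts in each untreated SOX2-FKBP library. They are those with the highest mean and no exon in the window, and the capitals mark the central 21 bases at the summit.
Intron of 2410017I17Rik, chr17:36154578-36154778: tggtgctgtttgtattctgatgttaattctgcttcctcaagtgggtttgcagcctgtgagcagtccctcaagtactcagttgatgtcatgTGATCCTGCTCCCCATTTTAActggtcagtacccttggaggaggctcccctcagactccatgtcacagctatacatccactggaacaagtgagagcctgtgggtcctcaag
Intron of Gm10499, chr17:36148597-36148797: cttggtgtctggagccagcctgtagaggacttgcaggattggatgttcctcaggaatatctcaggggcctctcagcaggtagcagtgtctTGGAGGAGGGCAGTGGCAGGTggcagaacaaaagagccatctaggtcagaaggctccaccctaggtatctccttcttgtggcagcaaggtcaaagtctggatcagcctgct
Intron of Mid1, chrX:169980756-169980956: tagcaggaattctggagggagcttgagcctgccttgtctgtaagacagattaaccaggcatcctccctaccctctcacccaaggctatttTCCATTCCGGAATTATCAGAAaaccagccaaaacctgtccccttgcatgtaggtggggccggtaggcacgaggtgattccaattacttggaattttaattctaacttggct

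The third set holds 3 peaks of a run of neighbouring peaks in the Hoxb cluster that were called higher in OCT4-FKBP. They were chosen for the largest fold changes of the run among those without an exon in the window. The first Hoxb3 peak and the peak near Hoxb6 had enough counts to be tested only through the OCT4-FKBP libraries. Their calls and ranks are therefore no result. The capitals mark CpG, of which the windows hold 2, 18 and 4.
Intron of Hoxb3, chr11:96330574-96330774: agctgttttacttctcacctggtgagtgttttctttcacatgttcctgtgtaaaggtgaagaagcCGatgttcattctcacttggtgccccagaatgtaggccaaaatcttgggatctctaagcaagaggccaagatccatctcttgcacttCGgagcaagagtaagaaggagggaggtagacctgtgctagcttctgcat
CpG-rich intron of Hoxb3, chr11:96332976-96333176: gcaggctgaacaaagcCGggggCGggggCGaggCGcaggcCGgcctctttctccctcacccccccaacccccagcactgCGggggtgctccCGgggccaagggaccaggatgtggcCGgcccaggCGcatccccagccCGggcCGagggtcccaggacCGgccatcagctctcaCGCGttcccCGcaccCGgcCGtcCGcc
Intron near Hoxb6, chr11:96291793-96291993: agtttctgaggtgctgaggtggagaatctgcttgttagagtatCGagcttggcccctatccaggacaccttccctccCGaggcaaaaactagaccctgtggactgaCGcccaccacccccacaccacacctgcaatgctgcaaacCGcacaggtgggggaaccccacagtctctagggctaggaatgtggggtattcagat

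Outside chromosomes 6 and 8, 15811 of 146910 tested peaks were higher in untreated OCT4-FKBP (10.8%) and 22553 were lower (15.4%), at an adjusted p under 0.05. With a log2 fold change beyond 1 in size as well, 10042 were higher (6.84%) and 19378 lower (13.2%). Promoters and distal regions divided differently between the directions. Of 22539 peaks that reach within 500 bp of the annotated start of a protein-coding gene, 3763 were higher (16.7%) and 1082 lower (4.8%), and 1670 (7.41%) and 805 (3.57%) passed the size as well. Of 137844 peaks more than 500 bp from any annotated start, 13491 were higher (9.79%) and 23556 lower (17.1%). The lower peaks were mostly distal ones. Their median count was 10.1 in OCT4-FKBP and 30.2 in SOX2-FKBP, and 7.6% of them lay within 500 bp of a start, against 25.9% of the higher and 18.1% of the uncalled peaks. A peak was tested if it had over 10 counts in over 6 of the 27 libraries, and a peak that reached this only through the line in which it was high had to differ. That was so for 2101 of the higher and 5567 of the lower peaks outside chromosomes 6 and 8, leaving 13710 and 16986. Among promoters it was so for 113 of the higher and 137 of the lower, leaving 3650 and 945. Among distal peaks it was so for 2265 of the higher and 5744 of the lower, leaving 11226 and 17812.

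These counts rested partly on single libraries. Without replicate 1 of SOX2-FKBP, 5417 peaks outside chromosomes 6 and 8 were higher and 11276 lower. Without its replicate 2, 8789 were higher, and without replicate 1 of OCT4-FKBP, 10038. Promoters called higher numbered 1224, 1929 and 1971 without those same libraries in turn. Promoters called lower numbered 538 without replicate 1 of SOX2-FKBP and 694 without replicate 2 of OCT4-FKBP. Distal peaks called higher numbered 4617 and 7571 without replicate 1 and replicate 2 of SOX2-FKBP, and distal peaks called lower numbered 11788 without its replicate 1. Scaling to total counts moved the share of higher calls from 41.2% to 26.5% of all calls, with the median of all tested peaks at -0.13 in place of 0.03.

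The direction of the calls followed base composition. The median GC content was 53.1% in the higher, 48.9% in the lower and 50% in the uncalled peaks. Of peaks with at least 60% GC, 26.5% were higher and 0.571% lower, whereas of those between 45% and 50% GC, 6.93% were higher and 20.2% lower. When the trend of each library's counts with GC content was removed by offsets (GC offsets), the peaks of at least 60% GC gave 8.75% higher and 6.59% lower. The count of higher promoters moved from 3763 to 2458 (10.9%) and of lower promoters from 1082 to 1651 (7.33%). Counts of list promoters with GC offsets are read against these shares of all promoters. The median of all promoter peaks was 0.26 in the main fit and 0.04 with GC offsets.

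**Figure D1:**
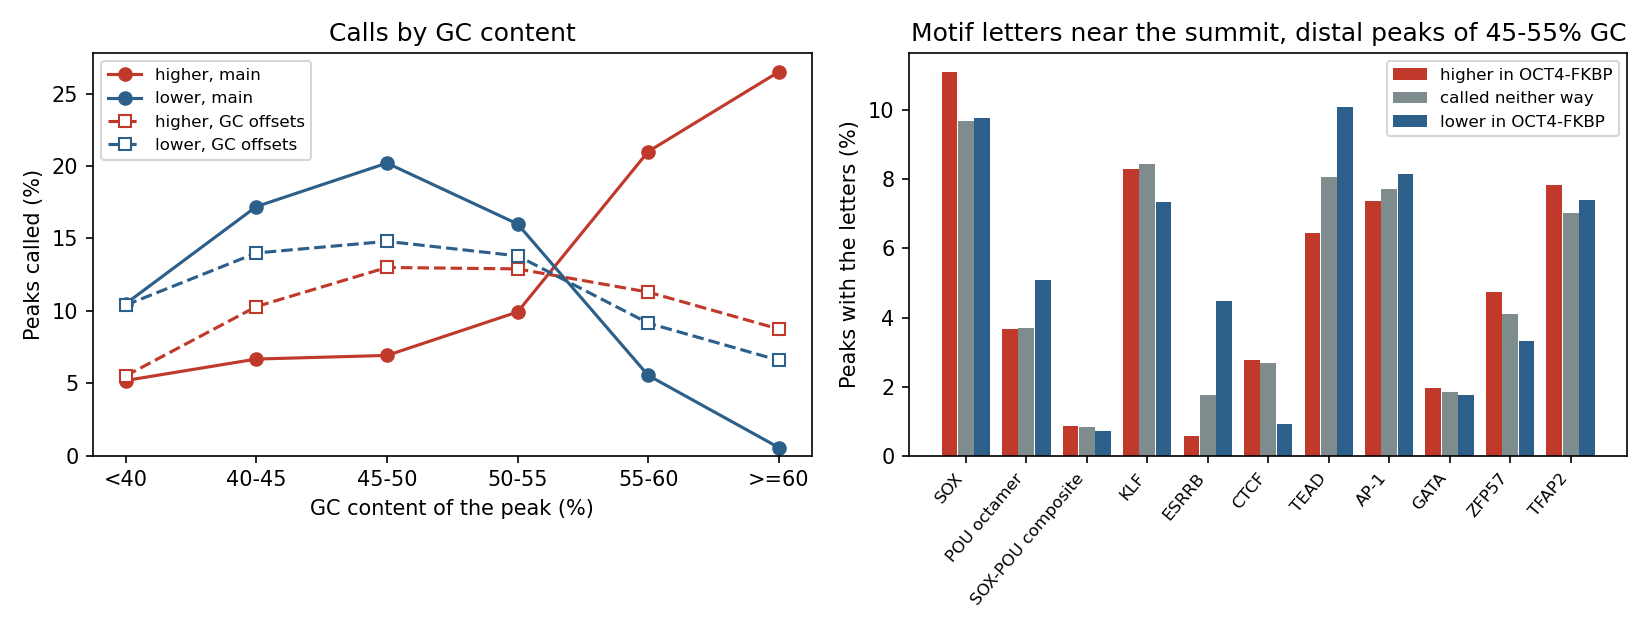
Left, percent of tested peaks outside chromosomes 6 and 8 called higher (red) or lower (blue) in untreated OCT4-FKBP against the GC content of the peak, in the main fit (filled points) and with GC offsets (open squares). Right, percent of distal peaks of 45 to 55% GC that hold the letters of 11 motif sets within 100 bp of the summit, for peaks called higher, called neither way and called lower: ESRRB letters stood in 4.49% of the lower and 0.568% of the higher peaks.

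Chromosomes 6 and 8 had a raised share of the counts in OCT4-FKBP and were therefore treated apart. Chromosome 8 took 7.96% and 7.68% of the counts in the untreated OCT4-FKBP libraries against 5.31% and 5.36% in SOX2-FKBP. The median log2 fold change of its 9813 tested peaks was 0.68, and the median ratio to the SOX2-FKBP mean was 0.72 in both OCT4-FKBP replicates, over peaks that averaged 20 counts or more. Along the chromosome the median over 13 bins of 10 Mb lay between 0.56 and 0.88, so the excess covered its whole length. The other 17 autosomes had medians between -0.09 and 0.10. The untreated NANOG-FKBP libraries, measured in the same way, had 5.74% and 7.40% of their counts on chromosome 8. Their median ratios to the SOX2-FKBP mean were 0.15 and 0.53, so a raised share was not particular to OCT4-FKBP.

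Chromosome 6 differed between the OCT4-FKBP replicates themselves. It took 6.54% of the counts in replicate 1 and 7.78% in replicate 2, against 5.31% and 5.30% in SOX2-FKBP and 5.28% and 5.16% in NANOG-FKBP. The same difference stood in the treated libraries of the line, with 6.32% to 6.51% in the 3 times of replicate 1 and 7.48% to 7.73% in those of replicate 2. The median ratio to the SOX2-FKBP mean was 0.43 in replicate 1 and 0.73 in replicate 2. Replicate 1 also changed along the chromosome: over the first 80 Mb its median ratio was 0.09 and beyond 80 Mb it was 0.65, a boundary chosen after seeing the data. Replicate 2 stood at 0.45 and 0.90 in the same stretches. In all 4 libraries of replicate 1, the first 80 Mb held 1.95% to 2.08% of the counts. That range overlaps the 1.89% to 2.08% of the 8 SOX2-FKBP libraries in the fit. The rest of the chromosome held 4.37% to 4.56% in replicate 1 against 3.15% to 3.23% in those SOX2-FKBP libraries. More copies of a chromosome and more counts per copy cannot be told apart in these counts.

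**Figure D2:**
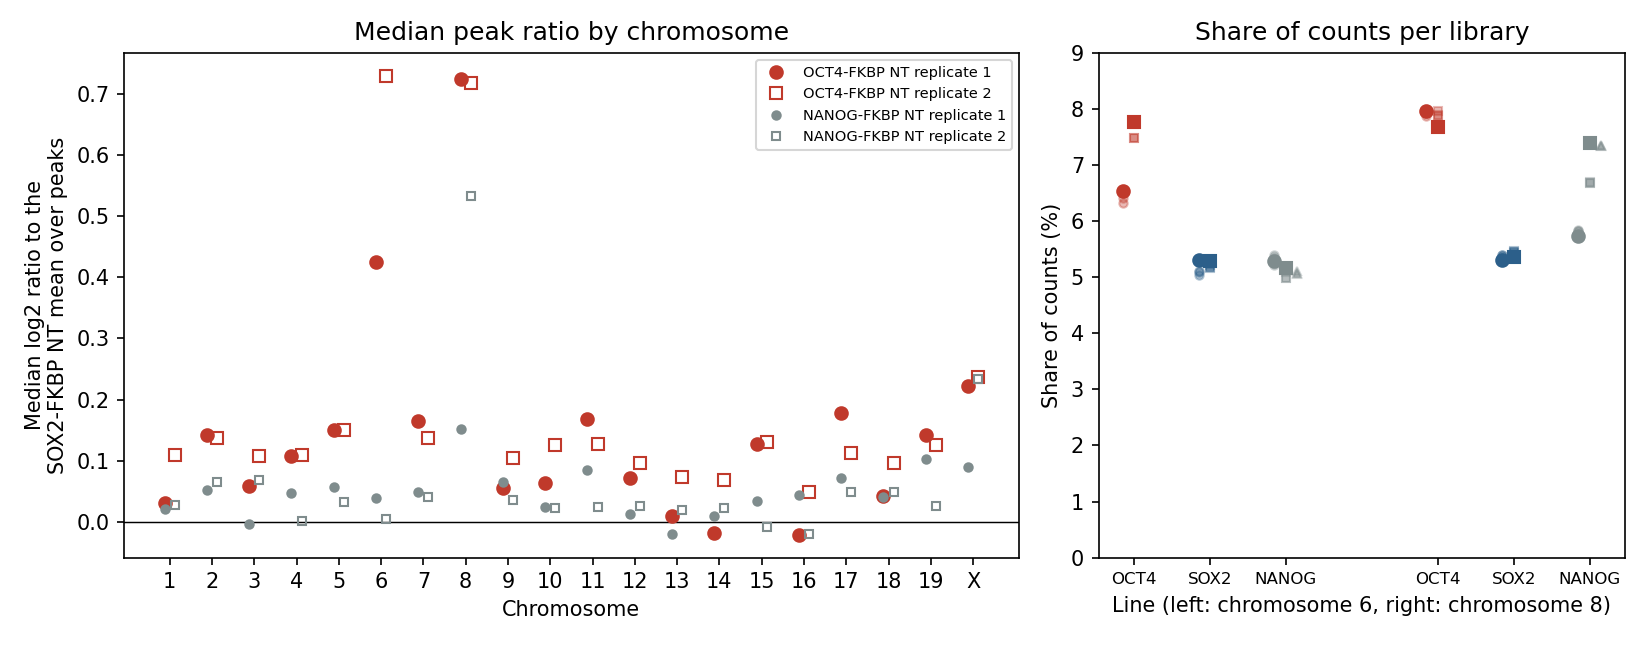
Left, median log2 ratio of each untreated OCT4-FKBP library (red) and NANOG-FKBP library (grey) to the mean of the untreated SOX2-FKBP libraries, over the peaks of each chromosome that averaged 20 normalized counts or more. Right, percent of a library's counts on chromosome 6 and chromosome 8, each point a library, with untreated libraries as large and treated ones as small symbols. The OCT4-FKBP points lie highest on chromosomes 6 and 8, and its replicates differ on chromosome 6. On chromosome 8 the NANOG-FKBP libraries spread from 5.74% to 7.40%, up to near the 7.68% to 7.96% of OCT4-FKBP.

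Counted against the rest of the genome, 3096 of 9705 tested peaks of chromosome 6 were higher and 672 lower, and on chromosome 8 3753 were higher and 536 lower. Scaled within each chromosome, chromosome 6 had 1243 higher (12.8%) and 1431 lower (14.7%) peaks and chromosome 8 had 1092 higher (11.1%) and 1497 lower (15.3%). Elsewhere the shares were 10.8% and 15.4%. Without replicate 1 or 2 of SOX2-FKBP, chromosome 6 had 1122 and 1738 called peaks and chromosome 8 had 1109 and 1691. The uneven excess on chromosome 6 remained in this scaling, since the first 80 Mb held 212 higher and 837 lower peaks and the rest 1031 and 594. With both stretches scaled on their own, the counts were 393 and 594 before 80 Mb and 595 and 831 beyond it, so that the leading direction beyond 80 Mb turned. All values for genes on these chromosomes are from the scaling within the chromosome unless a sentence says otherwise.

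**Figure D3:**
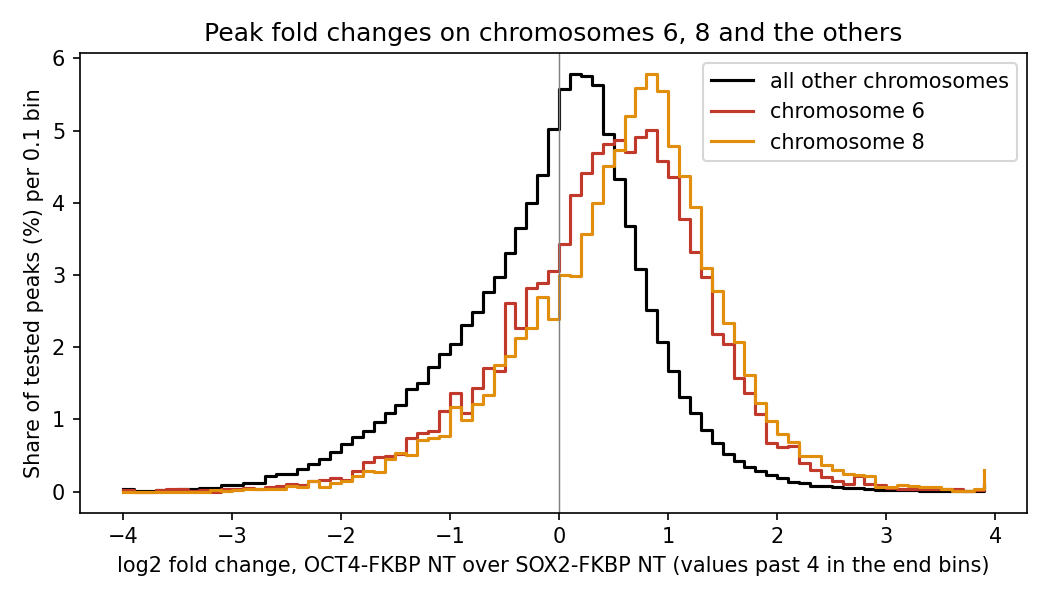
Share of tested peaks by log2 fold change, OCT4-FKBP NT over SOX2-FKBP NT, as counted against the rest of the genome, for chromosome 6 (red), chromosome 8 (orange) and all other chromosomes (black). The median was 0.52 for chromosome 6 and 0.68 for chromosome 8, and between -0.09 and 0.10 for each other autosome.

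The X chromosome had a median log2 fold change of 0.18, with 346 higher (12.1%) and 210 lower (7.33%) of 2864 peaks. Its median ratio to the SOX2-FKBP mean was 0.22 and 0.24 in the OCT4-FKBP libraries and 0.09 and 0.23 in the NANOG-FKBP libraries. The promoters of the Y-linked genes Uty, Ddx3y and Eif2s3y had counts in all 4 libraries, at 25 to 72.6 in OCT4-FKBP and 42.2 to 79.1 in SOX2-FKBP, and none was called.

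The Hox clusters were the gene list with the highest median among the lists with at least 3 promoters. Hox genes encode the homeodomain factors that give cells their position along the body axis, and they are silent in mESCs. Of 30 Hox promoter peaks 23 were higher in OCT4-FKBP (76.7%, where 16.7% of all promoters were) and none was lower. Their median log2 fold change was 1.05, and 0.69 with GC offsets, under which 17 were higher. Under the 14 alternatives that tested the same peaks, 17 to 25 were higher and none was lower, with medians of 0.69 to 1.19. At the promoter of Hoxc9 the counts were 301 and 194 in OCT4-FKBP and 73.0 and 68.6 in SOX2-FKBP (log2 fold change 1.79, SE 0.27, adjusted p = 5.05e-06). At Hoxb4 they were 281 and 160 against 72.3 and 76.8 (1.56, SE 0.26, adjusted p = 2.3e-05), and at Hoxd11 324 and 188 against 85.9 and 73.3 (1.67, SE 0.29, adjusted p = 3.31e-05). In each of them both OCT4-FKBP libraries stood above both SOX2-FKBP libraries, and replicate 1 was the higher. These promoters were named for a call beyond a log2 fold change of 1, so the lack of overlap is no separate support. The NANOG-FKBP libraries lay between or near the groups, at 89.9 and 175 for Hoxc9, 115 and 182 for Hoxb4 and 101 and 204 for Hoxd11.

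Among the 7 Hox promoters that were not called, Hoxc13 had 309 and 294 in OCT4-FKBP and 283 and 279 in SOX2-FKBP, and Hoxb9 had 301 and 181 against 228 and 211. Peaks were also counted from the first to the last gene of each cluster, whether promoters or not. Higher were 19 of 32 peaks at Hoxa, 30 of 43 at Hoxb, 16 of 28 at Hoxc and 20 of 24 at Hoxd, and the only lower peaks were 3 at Hoxb, where 10.8% of all peaks outside chromosomes 6 and 8 were higher and 15.4% lower. With GC offsets 12, 26, 17 and 16 were higher, and 2 at Hoxb and 1 at Hoxc were lower. The summed counts of Hoxd were 2038 and 1822 in OCT4-FKBP, 790 and 867 in SOX2-FKBP and 1174 and 1727 in NANOG-FKBP. In the 6 treated OCT4-FKBP libraries the Hoxd sum lay between 1663 and 2400, and in the 6 treated SOX2-FKBP libraries of those times between 770 and 1157. Hoxa lies in the first 80 Mb of chromosome 6, and its median was 1.01 scaled within the chromosome, 1.28 scaled within that stretch and 1.47 as counted.

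The longest run of neighbouring peaks that were all higher with a fold change beyond 1 was in the Hoxb cluster. It had 26 peaks over 96.8 kb of chromosome 11 (chr11:96278648-96375426), from Hoxb8 to Hoxb1, and 10 of them were promoters. Their summed counts were 2534 and 1660 in OCT4-FKBP, 676 and 636 in SOX2-FKBP and 989 and 1351 in NANOG-FKBP. The fold changes of the run lay between 1.05 and 2.61, and 24 of the 26 were called higher with GC offsets, under which the longest run of gains anywhere had 11 peaks. Of the 26 peaks 3 passed the filter on counts through the OCT4-FKBP libraries alone. The peak with the largest fold change was among them, so that top value is no result. The Hoxb3 intron peak shown above with 18 CpG had 257 and 128 against 41.5 and 30.2 (2.38, SE 0.31, adjusted p = 4.29e-07). The other Hoxb3 peak shown, with 2 CpG, had 56.2 and 18.5 against 4.29 and 8.14, where the OCT4-FKBP libraries were far apart, and the peak near Hoxb6 had 22.9 and 18 against 4.29 and 3.49. No test is given for these, since they passed the filter through OCT4-FKBP.

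**Figure D4:**
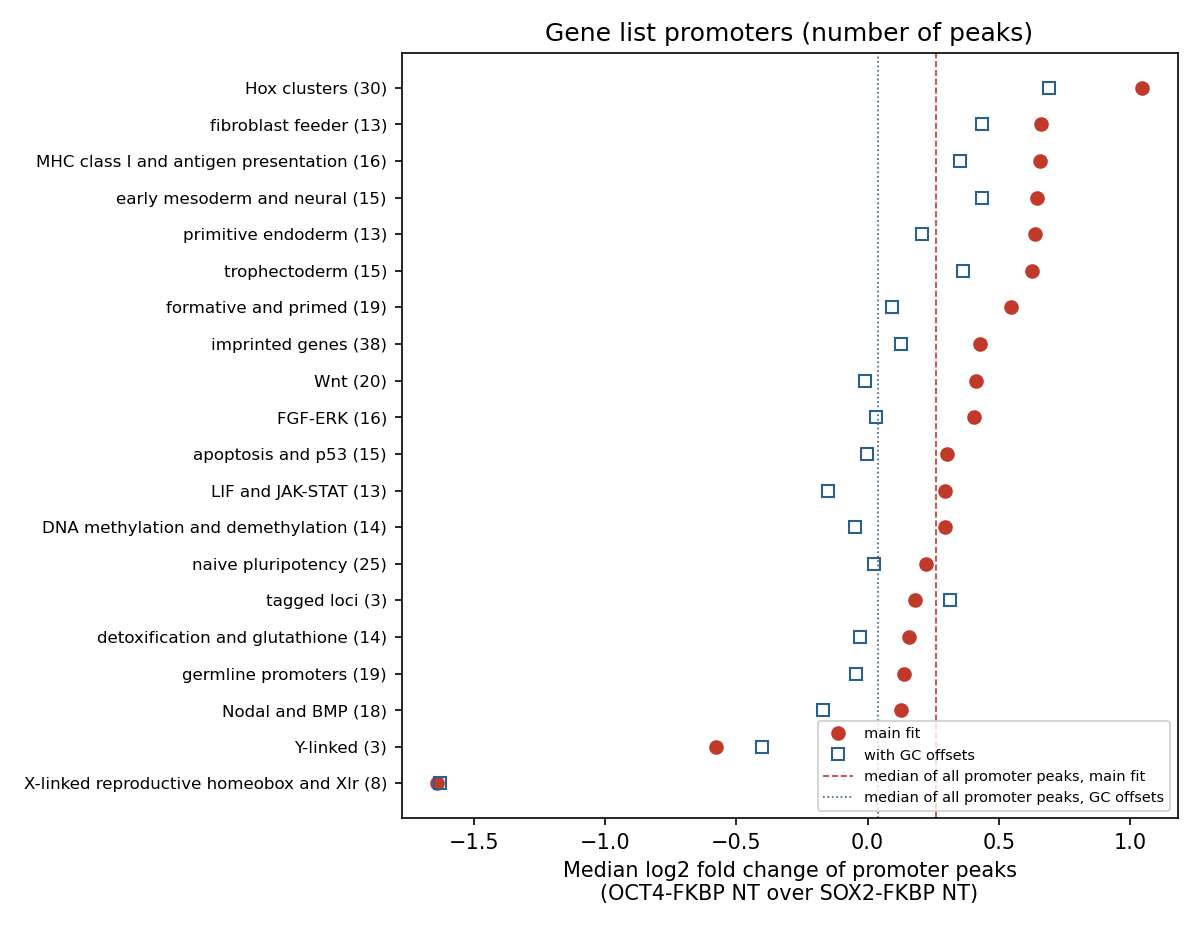
Median log2 fold change of the promoter peaks of each gene list with at least 3 tested promoters, in the main fit (filled circles) and with GC offsets (open squares), with the median of all promoter peaks as a vertical line for each. The Hox clusters stand highest, at 1.05 and 0.69, and the X-linked reproductive homeobox and Xlr genes lowest, at -1.64 and -1.63, over 8 promoters of which 2 passed the filter on counts through the SOX2-FKBP libraries alone.

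None of the 3 promoters at the tagged genes was called. Pou5f1, the gene of OCT4, had 1062 and 849 counts in OCT4-FKBP and 601 and 647 in SOX2-FKBP (0.62, SE 0.25, adjusted p = 0.0652). The Pou5f1 peak is 2566 bp wide, with its summit between genes and 1952 bp from the start. Its counts are therefore not those of the promoter alone. Sox2 had 287 and 319 against 236 and 301 (0.18, SE 0.23, adjusted p = 0.598). Nanog, on chromosome 6, had 275 and 328 against 214 and 198, which was 0.55 as counted and 0.08 scaled within the chromosome (SE 0.23, adjusted p = 0.838). Scaled within the stretch beyond 80 Mb, where it lies, Nanog was at -0.14 (adjusted p = 0.69). The sign for Sox2 and Nanog turned with the processing, as given among the limits.

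Of 25 naive pluripotency promoters 5 were higher (20%, near the 16.7% of all promoters) and none lower, with a median of 0.22 beside 0.26 for all promoters. With GC offsets 4 were higher, where 10.9% of all promoters were, and the median was 0.02. The 5 were Dppa3, Utf1, Dppa2, Dppa4 and Lin28a, and Klf4, Esrrb, Tfcp2l1, Prdm14 and Nr5a2 were among those not called. Dppa3, which protects maternal methylation marks in the early embryo and is on chromosome 6, had 166 and 151 against 51.5 and 43.0 (1.27, SE 0.26, adjusted p = 0.000326). Utf1, a chromatin protein of undifferentiated cells, had 235 and 182 against 78.7 and 104 (1.20, SE 0.29, adjusted p = 0.00189). Dppa2 had 133 and 160 against 78.0 and 67.5 (1.01, SE 0.24, adjusted p = 0.00135), and its neighbour Dppa4, with which it works as a pair, had 56.2 and 45.6 against 28.6 and 27.9 (0.83, SE 0.28, adjusted p = 0.0213). Lin28a, which encodes an RNA-binding protein, had 329 and 307 against 159 and 174 (0.93, SE 0.25, adjusted p = 0.00505) and was not called with GC offsets (0.55, adjusted p = 0.065). Without replicate 1 of SOX2-FKBP 2 of the 5 were called, and Utf1 (1.01, adjusted p = 0.0748), Lin28a (0.87, adjusted p = 0.0807) and Dppa4 (0.86, adjusted p = 0.135) were not. Dppa4 also lost its call without replicate 2 of SOX2-FKBP (0.82, adjusted p = 0.092) and without replicate 1 of OCT4-FKBP (0.68, adjusted p = 0.135). Of the 355 distal peaks within 50 kb of the naive genes 35 were higher and 38 lower, where 9.79% of all distal peaks were higher and 17.1% lower.

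Against SOX2-FKBP, promoters of genes for later stages and other lineages had higher calls in OCT4-FKBP and no lower ones. Higher were 7 of 19 formative and primed promoters, 9 of 13 for primitive endoderm, 7 of 15 for trophectoderm and 9 of 15 for early mesoderm and neural cells, with medians of 0.55, 0.64, 0.63 and 0.65, where 16.7% of all promoters were higher with a median of 0.26. One of the 9 endoderm promoters, Hnf4a, passed the filter on counts through the OCT4-FKBP libraries alone. With GC offsets 2, 5, 5 and 6 were higher, where 10.9% of all promoters were, and the formative and primed list was near that share. The medians were then 0.09, 0.21, 0.36 and 0.44 beside 0.04 for all promoters. Without replicate 1 of SOX2-FKBP 2, 5, 3 and 2 were higher, and without its replicate 2 these were 4, 5, 5 and 6. Without replicate 1 of OCT4-FKBP they were 4, 6, 5 and 5, and without its replicate 2 they were 4, 5, 7 and 7. Otx2, a homeodomain factor of the formative state, had 186 and 173 against 65.8 and 74.4 (1.36, SE 0.30, adjusted p = 0.000846). Cdx2, a trophectoderm factor, had 225 and 163 against 70.1 and 76.8 (1.40, SE 0.26, adjusted p = 9.28e-05), and Eomes 331 and 261 against 135 and 133 (1.14, SE 0.25, adjusted p = 0.000573). In these 3 promoters the OCT4-FKBP libraries stood clear of the SOX2-FKBP libraries. The promoters were named for a call beyond a log2 fold change of 1, so this is no separate support. Untreated NANOG-FKBP had 105 and 152 at Cdx2 and 161 and 281 at Eomes, which was also above both SOX2-FKBP libraries.

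For the endoderm factor Gata4 the counts were 139 and 144 against 64.4 and 62.8 (1.15, SE 0.27, adjusted p = 0.00119), and for the mesoderm factor T they were 139 and 115 against 55.1 and 52.3 (1.23, SE 0.27, adjusted p = 0.000669). Untreated NANOG-FKBP had 89.9 and 141 at Gata4 and 99.1 and 153 at T. In the same fit, OCT4-FKBP over NANOG-FKBP was 0.30 at Gata4 (adjusted p = 0.527) and 0.01 at T (adjusted p = 0.987). SOX2-FKBP over NANOG-FKBP was -0.85 (adjusted p = 0.0561) and -1.22 (adjusted p = 0.00554), so at T the low value was that of SOX2-FKBP. Not all neural genes were called, and NANOG-FKBP had 103 and 127 at Hes5 and 112 and 230 at Pax6. Hes5 had 156 and 128 against 64.4 and 72.1 (1.06, SE 0.28, adjusted p = 0.00448) but not without replicate 1 of SOX2-FKBP (0.97, adjusted p = 0.0817), and Pax6 had 203 and 167 against 123 and 128 (0.56, SE 0.29, adjusted p = 0.147). Markers of fibroblast feeder cells were read in the same way. The promoters of 9 such markers summed to 379 and 410 in OCT4-FKBP and 220 and 229 in SOX2-FKBP. Of the 6 that were tested 2 were higher (Thy1 and Twist2), where 16.7% of all promoters were. Col3a1, Prrx1 and Lum had no peak. Thy1 was not called without replicate 1 of SOX2-FKBP (0.92, adjusted p = 0.0726) or replicate 2 of OCT4-FKBP (0.81, adjusted p = 0.0582). The part of other cells in the values of these groups was not tested.

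**Figure D5:**
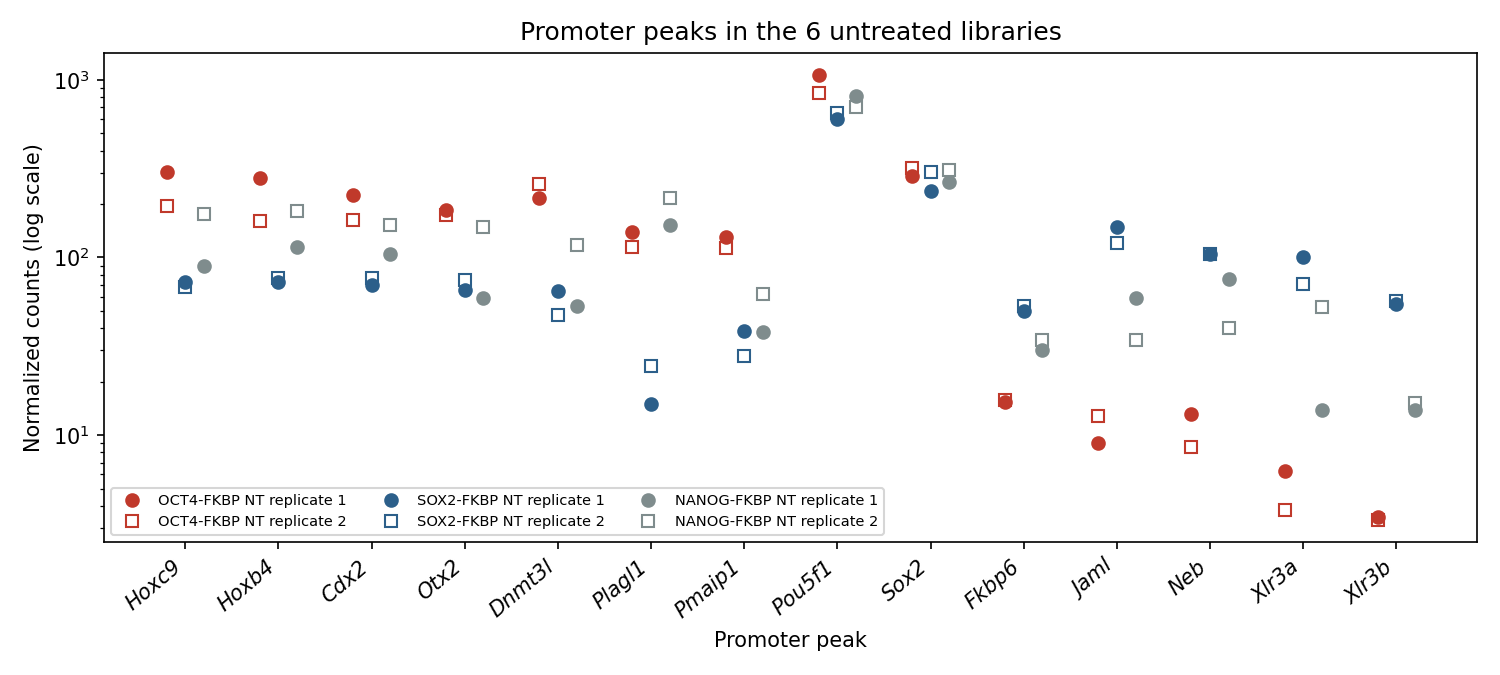
Normalized counts (log scale) of 14 promoter peaks in each untreated library: OCT4-FKBP in red, SOX2-FKBP in blue, NANOG-FKBP in grey, replicate 1 as circles and replicate 2 as squares. In 7 promoters on the left, from Hoxc9 to Pmaip1, the OCT4-FKBP points lie above the SOX2-FKBP points, Pou5f1 and Sox2 were not called, and in the 5 on the right the OCT4-FKBP points lie below.

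Imprinted genes, which are expressed from 1 parental copy under the control of DNA methylation, gave 10 higher (26.3%) and 2 lower (5.26%) of 38 promoter peaks, with a median of 0.43, where 16.7% of all promoters were higher and 4.8% lower. With GC offsets 4 were higher and 4 lower (median 0.13), where 10.9% of all promoters were higher and 7.33% lower. Higher were 5 without replicate 1 of OCT4-FKBP, 4 without replicate 1 and 6 without replicate 2 of SOX2-FKBP. Plagl1, a zinc finger gene whose promoter is methylated on the maternal copy, had 140 and 114 in OCT4-FKBP and 15 and 24.4 in SOX2-FKBP (2.73, SE 0.31, adjusted p = 2.51e-08). The untreated NANOG-FKBP cells, also E14, had 153 and 217 there, so the low value was that of the SOX2-FKBP libraries. Nespas, an antisense transcript of the Gnas locus, had 408 and 375 against 173 and 169 (1.19, SE 0.22, adjusted p = 0.0001), with 384 and 368 in NANOG-FKBP. Grb10, which encodes a growth factor receptor adaptor, had 128 and 141 against 55.8 and 46.5 (1.38, SE 0.29, adjusted p = 0.000391), with 109 and 138 in NANOG-FKBP. The lower promoters were Igf2r, with 68.7 and 60.3 against 107 and 100 (-0.69, SE 0.27, adjusted p = 0.0497), and Slc38a4, with 54.9 and 131 against 200 and 163 (-0.95, SE 0.31, adjusted p = 0.0188), where the OCT4-FKBP replicates were far apart. Igf2r lost its call without any 1 of the 4 libraries (-0.60 to -0.78, adjusted p from 0.0915 to 0.232), and Slc38a4 without replicate 1 of OCT4-FKBP (-0.48, adjusted p = 0.35) or of SOX2-FKBP (-0.79, adjusted p = 0.184).

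Among the 14 promoters for enzymes of DNA methylation and demethylation, 2 were higher (14.3%, near the 16.7% of all promoters), and 1 with GC offsets, with medians of 0.29 and -0.05. Dnmt3l, the cofactor of the de novo methyltransferases, had 217 and 259 against 64.4 and 47.7 (2.07, SE 0.36, adjusted p = 4.76e-05), with 53 and 117 in NANOG-FKBP. Tet3, a demethylating enzyme, had 187 and 214 against 82.3 and 111. Scaled within chromosome 6, which leaves the uneven excess along it, Tet3 was at 0.60 (SE 0.21, adjusted p = 0.0342). With GC offsets Tet3 was at 0.15 (adjusted p = 0.598). It was not called without replicate 1 (0.57, adjusted p = 0.12) or 2 (0.63, adjusted p = 0.087) of OCT4-FKBP or replicate 1 of SOX2-FKBP (0.39, adjusted p = 0.393). Of 19 germline promoters, which such methylation silences, 3 were higher (15.8%) and 1 was lower (5.26%), near the 16.7% and 4.8% of all promoters. With GC offsets 1 was higher and 2 were lower, and without replicate 1 of SOX2-FKBP none was higher. The lower one was Fkbp6, a gene of the piRNA pathway in male germ cells, with 15.3 and 15.7 against 50.1 and 53.5 (-1.73, SE 0.32, adjusted p = 8.34e-05). Sycp1, which encodes a protein of the synaptonemal complex, had 44.4 and 43.2 against 15 and 16.3 (1.49, SE 0.40, adjusted p = 0.00472), and was not called without replicate 1 of SOX2-FKBP (1.42, adjusted p = 0.084).

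Some of the X-linked Xlr genes, a lymphocyte-regulated family with copies of nearly the same sequence, had few counts in OCT4-FKBP. Of the 16 Rhox and Xlr genes 8 had a tested promoter. Xlr3a and Xlr3b were lower, where 4.8% of all promoters were. Xlr3a had 6.25 and 3.80 counts against 100 and 71.0 (-4.13, SE 0.56, adjusted p = 8.08e-07). Xlr3b had 3.47 and 3.32 against 54.4 and 57.0 (-3.99, SE 0.53, adjusted p = 5.15e-07). Xlr3c and Xlr4a had at most 2.78 in OCT4-FKBP and 20.8 in SOX2-FKBP, and since they passed the filter on counts through the SOX2-FKBP libraries alone, no test is given. The NANOG-FKBP libraries had 13.8 and 52.4 at Xlr3a and 13.8 and 15.2 at Xlr3b. The 4 Rhox promoters tested, Rhox6, Rhox9, Rhox11 and Rhox13, lay between 8.59 and 44.2 in the 4 libraries and none was called. Reads of such copies can be shared among them, so the value of a single Xlr gene is uncertain.

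The other lists are read against the 16.7% of all promoters that were higher and the 4.8% that were lower. With GC offsets these shares of all promoters were 10.9% and 7.33%. Of 16 promoters for MHC class I and antigen presentation 8 were higher and 1 lower (median 0.66, and 0.35 with GC offsets, under which 3 were higher and none lower), and the classical and Q-region H2 genes are themselves near-copies. Higher MHC promoters numbered 5 without replicate 1 of OCT4-FKBP, 2 without replicate 1 and 3 without replicate 2 of SOX2-FKBP. The lower call, at H2-T24, was lost without any 1 of the 4 libraries (-0.71 to -0.92, adjusted p from 0.0641 to 0.215). Psmb8, a subunit of the immunoproteasome, had 88.2 and 95.4 against 46.5 and 38.4 (1.1, SE 0.26, adjusted p = 0.00145). In the FGF-ERK list 5 of 16 were higher (31.2%), and 2 with GC offsets (median 0.03). The 5 included Spry4, a feedback inhibitor, with 384 and 425 against 175 and 206 (1.09, SE 0.23, adjusted p = 0.000521). The Wnt list had 4 higher of 20 (20%), and 4 higher and 1 lower with GC offsets. Its called promoters included Wnt8a, a ligand of gastrulation, with 315 and 237 against 110 and 98.9 (1.39, SE 0.26, adjusted p = 9.4e-05). Nodal and BMP had 1 higher of 18, LIF and JAK-STAT 1 of 13, apoptosis and p53 1 of 15, detoxification and glutathione none higher and 1 lower of 14, and fibroblast feeder genes 5 of 13. With GC offsets none was higher and 2 were lower for Nodal and BMP, none and 1 for LIF and JAK-STAT, 1 and 1 for apoptosis and p53, 1 and 2 for detoxification, and 3 and none for feeder genes. The FGF-ERK count was 2 without replicate 1 of OCT4-FKBP or either replicate of SOX2-FKBP, the Wnt count 2 without replicate 2 of OCT4-FKBP or either replicate of SOX2-FKBP, and the feeder count 2 without replicate 2 of OCT4-FKBP or replicate 1 of SOX2-FKBP. The lower detoxification promoter was Cbr3, at 259 and 235 against 337 and 375 (-0.53, SE 0.20, adjusted p = 0.0465), and its call was lost without any 1 of the 4 libraries (-0.45 to -0.60, adjusted p from 0.0967 to 0.212). Of the 14 genes of the 2-cell-like list 2 had a tested promoter and Dppa2 was the one called. The p53 target called was Pmaip1, the gene of NOXA, with 130 and 113 against 38.7 and 27.9 (1.83, SE 0.31, adjusted p = 3.31e-05).

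Away from these lists, the 12 promoters with the largest gains included the Miip promoter, with 206 and 171 in OCT4-FKBP and 7.87 and 10.5 in SOX2-FKBP (4.38, SE 0.33, adjusted p = 4.88e-12). Pnp2, a purine nucleoside phosphorylase, had 162 and 132 against 13.6 and 10.5 (3.57, SE 0.30, adjusted p = 6.83e-11). Others of them were at Gm36079, Anxa9, Gm20478, Ppp2r3d and 9030624G23Rik. The peaks at Coil, 5730507C01Rik, Trim12a and Hist1h4m passed the filter on counts through the OCT4-FKBP libraries alone, so their rank by fold change is no result, and Trim12a and Hist1h4m belong to families of close copies. Coil, the gene of the Cajal body protein coilin, had 142 and 86.4 against 5.01 and 5.82, in a peak of 312 bp with 46.8% of its bases repeat-masked, placed in an intron.

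The 12 promoters with the largest losses were Xlr3a, Jaml, Defb42, Cdh23, Neb, Edn3, Platr25, Btbd9, Sh3rf2, Prim2, 1700080E11Rik and St5. Jaml, an adhesion molecule of leukocytes, had 9.03 and 12.8 counts against 148 and 121 (-3.59, SE 0.35, adjusted p = 1.21e-09), with 58.8 and 34.5 in NANOG-FKBP. Neb, the gene of the muscle protein nebulin, had 13.2 and 8.54 against 105 and 105 (-3.29, SE 0.33, adjusted p = 2.35e-09). Cdh23, a cadherin of hair cells of the ear, had 2.78 and 5.70 against 47.2 and 61.7 (-3.56, SE 0.42, adjusted p = 6.51e-08). Prim2, a subunit of the primase that starts DNA synthesis, had 18.7 and 13.8 against 106 and 96.6 (-2.66, SE 0.26, adjusted p = 1.24e-09). The GC content of these 12 peaks lay between 45.7% and 53.1%, where the median of all lower peaks was 48.9%.

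The largest losses of all were at distal peaks. In an intron of Smyd3, a methyltransferase gene, the counts were 3.47 and 3.32 in OCT4-FKBP and 95.9 and 102 in SOX2-FKBP (-4.83, SE 0.35, adjusted p = 1.65e-12). At chr15:97166589-97167795, beside the non-coding gene Gm32885, they were 7.64 and 2.37 against 124 and 119 (-4.69, SE 0.38, adjusted p = 2.03e-11). At chr3:34788542-34789155, 138429 bp from the start of Sox2, they were 3.47 and 3.80 against 77.3 and 77.9 (-4.37, SE 0.47, adjusted p = 9.43e-09), with 33.4 and 13.8 in NANOG-FKBP. On chromosome 6 an intron of Prickle2, a planar polarity gene, had 8.33 and 4.75 against 105 and 88.4 (-4.41, SE 0.35, adjusted p = 7.12e-12), and an intron of Reep1 had 4.86 and 5.22 against 58.7 and 54.7 (-3.94, SE 0.40, adjusted p = 2.29e-09). On chromosome 8 the largest loss was at an intron of Gm45255, with 10.4 and 7.60 against 74.4 and 83.8 (-3.78, SE 0.38, adjusted p = 1.52e-09). The lines did not overlap at any of these loci, which the rule for naming them required. NANOG-FKBP had 112 and 85.5 in the Smyd3 intron, near SOX2-FKBP. At chr17:26372760-26373212 near Neurl1b it had 12.7 and 6.90, where OCT4-FKBP had 3.47 and 3.32 and SOX2-FKBP 73.0 and 72.1.

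The lower distal peaks held the letters of ESRRB more often than the others. ESRRB is an orphan nuclear receptor of the naive network that binds its extended site as a monomer. The letters TCAAGGTCA, on either strand, stood within 100 bp of the summit in 4.56% of the lower peaks, 0.431% of the higher and 1.59% of the uncalled, and in 1.92% of all peaks tested outside chromosomes 6 and 8. Without the called peaks that passed the filter on counts through 1 line alone, these shares were 4.52% of the lower and 0.424% of the higher. The order was the same among distal peaks of 45 to 55% GC (4.49%, 0.568% and 1.76%) and for the calls with GC offsets (4.43%, 0.587% and 1.69%). Of the 2817 peaks with the letters 36.5% were lower and 2.41% higher, and their median log2 fold change was -0.68 where that of all peaks was 0.03. The order held in all 15 alternatives, in which the letters stood in 3.78% to 4.99% of the lower and 0.261% to 0.587% of the higher peaks. The share of peaks with the letters that were lower depended more on the libraries, at 18.4% without replicate 1 of SOX2-FKBP and 41.8% with scaling to total counts.

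The median level at these sites did not overlap between the untreated lines. Over the 1918 distal peaks with the letters and 45 to 55% GC, the median count was 11.8 and 13.1 in untreated OCT4-FKBP, 23.6 and 22.1 in SOX2-FKBP and 17.3 and 15.2 in NANOG-FKBP. It was 11.5 to 16.2 in the 6 treated OCT4-FKBP libraries and 23.2 to 26 in the 6 treated SOX2-FKBP libraries of the same times. In the 9 treated NANOG-FKBP libraries it was 14.7 to 18, a range that overlaps that of OCT4-FKBP. Distal peaks of the same GC content without the letters had medians of 16.7 and 17.6 in OCT4-FKBP and 20.8 and 20.9 in SOX2-FKBP, and so had lower medians in OCT4-FKBP too, by a smaller margin. In NANOG-FKBP their medians were 19.6 and 17.9. Peaks with the letters thus lay below those without them in OCT4-FKBP and NANOG-FKBP, and above them in SOX2-FKBP. The promoter of Esrrb itself had 444 and 414 against 339 and 358 and was not called (0.30, SE 0.27, adjusted p = 0.437). At the Rab3il1 intron peak whose sequence is shown above, the counts were 18.1 and 17.6 in OCT4-FKBP and 154 and 190 in SOX2-FKBP (-3.26, SE 0.27, adjusted p = 2.52e-11), with 72.6 and 66.2 in NANOG-FKBP. At the Angptl2 intron they were 8.33 and 16.1 against 120 and 89.6 (-3.04, SE 0.31, adjusted p = 4.74e-09), at the Gm47089 intron 7.64 and 9.49 against 88.8 and 65.1 (-3.15, SE 0.31, adjusted p = 1.84e-09), and at the 2610035D17Rik intron 6.94 and 8.07 against 65.8 and 65.1 (-3.09, SE 0.37, adjusted p = 7.53e-08). A match of letters is a description of the sequence and does not show that ESRRB was bound.

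Other motif sets differed less or in the other direction. CTCF letters (CCACNAGGG) stood in 2.89% of the higher and 0.98% of the lower peaks. The POU octamer (ATGCNAAT), which OCT4 can bind, stood in 5.63% of the lower and 2.79% of the higher peaks, and in 5.1% and 3.67% of the distal peaks of 45 to 55% GC. TEAD letters (GGAATGT, or the variant written GGAATGC) stood in 10.1% of the lower and 5.46% of the higher peaks. The composite of a SOX and a POU site (TTGTNATGC) stood in 1.0% of the lower and 0.855% of the higher peaks. Among distal peaks of 45 to 55% GC these shares were 0.72% and 0.867%, so the order turned. SOX letters (ACAATGG, or the variant written ACAAAGG) stood in 10.8% of the lower and 9.08% of the higher peaks, and in 9.78% and 11.1% of the distal peaks of 45 to 55% GC, where the order turned. KLF letters (GGGCGTGG, or the variant written GGGTGTGG) stood in 7.24% of the higher and 7.01% of the lower peaks. AP-1 letters (TGANTCA) stood in 5.82% of the higher and 8.13% of the lower peaks. GATA letters (AGATAAG) stood in 1.61% of the higher and 1.72% of the lower peaks. In the distal peaks of 45 to 55% GC their order turned as well, at 1.96% and 1.77%. ZFP57 letters (TGCCGC) stood in 8.18% of the higher and 3.23% of the lower peaks, and in 4.75% and 3.33% of those distal peaks. TFAP2 letters (GCCNNNGGC) stood in 11.8% of the higher and 7.48% of the lower peaks, and in 7.83% and 7.39% of those distal peaks. The letters of CTCF, TEAD, KLF and AP-1 kept their order in those distal peaks. All sets were searched on both strands. Among all tested peaks outside chromosomes 6 and 8, in the same windows, the letters of CTCF stood in 2.4%, of the POU octamer in 3.8%, of TEAD in 7.64%, of the SOX and POU composite in 0.961%, of SOX in 9.54%, of KLF in 7.75%, of AP-1 in 7.03%, of GATA in 1.71%, of ZFP57 in 5.52% and of TFAP2 in 8.88%. Sets can overlap in a peak, and the SOX-POU composite shares bases with the POU octamer.

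Some peaks were open in one line and nearly without counts in the other. With an average of 50 normalized counts or more in one line and at most 3 counts in each untreated library of the other, 34 peaks were open in OCT4-FKBP and none in SOX2-FKBP. At an average of 20 or more there were 129 and 10. SOX2-FKBP had the shallower libraries, so a count of at most 3 was easier to reach there. Of the 34, 14 had no count in either untreated SOX2-FKBP library and 9 had none in any of the 8 SOX2-FKBP libraries of the fit. No SOX2-FKBP library of the fit had more than 8 counts in any of them, and no NANOG-FKBP library more than 13. In 24 of the 34 both untreated NANOG-FKBP libraries had at most 3. The lowest count in an untreated OCT4-FKBP library was 60. Such peaks can pass the filter on low counts through the 8 OCT4-FKBP libraries alone, so no test or fold change is given.

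These 34 peaks lay on 12 chromosomes, 32 of them in introns or between genes, and 1 within 500 bp of a coding start. Over 50% of the bases were repeat-masked in 35.3% of them and in 10.8% of all peaks. Chromosome 12 held 6 of them between 18524122 and 23002227, and chromosomes 4, 7, 8 and 13 held 4 each. The highest mean was in the intron of 2410017I17Rik on chromosome 17, with 266 and 191 in OCT4-FKBP and 1.43 and 0 in SOX2-FKBP. The Gm10499 peak beside it had 237 and 173 against 0.716 and 0, and the Mid1 intron had 206 and 178 against 0 and 2.33. These are the 3 shown by sequence. At chr8:84653210-84653438, 9557 bp from the start of Ier2, the counts were 212 and 164 in OCT4-FKBP and 0 in all untreated SOX2-FKBP and NANOG-FKBP libraries. Near Gm6070 on the same chromosome they were 115 and 154 against 0.716 and 2.33. The alignments were kept at a mapping quality of at least 10, so a site that the genome of a line lacks and a site whose reads did not align cannot be told apart from closed chromatin.

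The neighbourhoods were read in 2 ways, as windows and as runs of neighbouring peaks. Among 2198 windows of 1 Mb with at least 5 tested peaks, the median of the window medians was 0.03, the lowest 1% lay below -0.91 and the highest 1% above 0.85. The highest median, 1.87, was in the window at 61 Mb of chromosome 13, which holds placental cathepsin genes such as Ctsj, Ctsq and Cts3 and where 9 of 15 peaks were higher and none lower. Of these 9, at least 5 passed the filter on counts through the OCT4-FKBP libraries alone. The next windows were at 111 and 82 Mb of chromosome 2, 124 Mb of chromosome 9, 15 Mb of chromosome 5 and 42 Mb of chromosome 14, with medians of 1.40, 1.34, 1.33, 1.32 and 1.26. In the window of chromosome 2 at 111 Mb, full of olfactory receptor genes, and in that of chromosome 14 the median peak was 84.4% and 81.4% repeat-masked.

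The lowest window median was -1.62 at 71 Mb of chromosome 14, where 7 of 9 peaks were lower and no coding gene is annotated. At 129 Mb of chromosome 7, around Plpp4 and Wdr11, 32 of 46 peaks were lower and none higher, with a median of -1.47. The window at 50 Mb of the same chromosome holds Nell1 and had 3 lower of 6 peaks (-1.57). The other 3 were at 19 Mb of chromosome 17, 138 Mb of the X chromosome and 159 Mb of chromosome 2, with medians of -1.44, -1.33 and -1.30.

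Runs of at least 3 neighbouring peaks called in the same direction beyond a fold change of 1 numbered 318 for gains, with 1186 peaks, and 1252 for losses, with 4867 peaks. With GC offsets there were 347 and 891. How many of these peaks passed the filter on counts through 1 line alone is given for the named runs only. After Hoxb, the longest gains were a run of 10 peaks at chr18:38542021-38580210 without a coding gene, runs of 8 peaks at Neat1 and at Mid1 and a run of 7 at chr13:61710746-61872773. Of their peaks 1 of 10, none at Neat1, 1 at Mid1 and 5 of 7 passed the filter on counts through the OCT4-FKBP libraries alone. Neat1, the long RNA that builds paraspeckles, had a summed count of 4163 and 1443 in OCT4-FKBP and 509 and 530 in SOX2-FKBP, with the OCT4-FKBP replicates far apart. In the treated NANOG-FKBP libraries the Neat1 sum ran from 800 to 9648, the widest range of the 10 runs named here. The Mid1 run had 2981 and 2165 against 671 and 618.

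The longest losses were 15 peaks each at Mbnl2 and Plpp4, 13 at Ephb1 and at Spink13 and 12 near Neurl1b, of which 4, 4, 7, 4 and 6 passed the filter on counts through the SOX2-FKBP libraries alone. At Mbnl2, a splicing regulator, the summed counts were 135 and 156 in OCT4-FKBP and 558 and 492 in SOX2-FKBP, with 320 and 276 in NANOG-FKBP. At Plpp4 they were 234 and 380 against 1059 and 886, with 832 and 800, and at Ephb1, an ephrin receptor, 176 and 156 against 610 and 580, with 422 and 279. Near Neurl1b they were 125 and 101 against 569 and 577, with 267 and 157. At Spink13 they were 100 and 100 against 352 and 358, with 267 and 208. In these 5 runs the sums of OCT4-FKBP and SOX2-FKBP did not overlap, which follows from the choice of peaks that were called lower. The sums of NANOG-FKBP lay between them. All peaks were also lower with GC offsets except 3 at Spink13, where 10 of 13 were. A single peak in all of them, at Plpp4, held the ESRRB letters. In the treated libraries of the fit the sums at Mbnl2 were 117 to 354 in OCT4-FKBP and 664 to 779 in SOX2-FKBP. At Ephb1 they were 70 to 102 and 461 to 548. The treated SOX2-FKBP libraries also counted in the filter through which 4 of the Mbnl2 and 7 of the Ephb1 peaks passed. These sums are therefore a description and no separate support for a difference.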

How the data were processed

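Of the ATACseq libraries of the degron time series 27 were fitted, without the SOX2-FKBP libraries taken earlier than 2 h after dTAG-13. Among the 27, 4 untreated libraries (2 per line) were compared here. The deposited counts are whole, unnormalized fragment counts per peak, made by the authors on 1 common peak set; per the labels and the study's methods, reads were aligned to mm10 with BWA, and alignments under a mapping quality of 10 and duplicates were removed. The submitters' processing notes name BWA 0.7.17-r1188, SAMtools 1.10 and Picard 2.12.0. The deposited peak list also holds fold enrichment (a ratio) and −log10 p- and q-values from the authors' peak caller; only its positions and summits were used. Groups were taken from the labels. No column of another sample was used.

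A peak was kept where over 6 of the 27 libraries had over 10 counts in it. edgeR 4.0.16 (R 4.3.3) was fitted with 1 mean per line and time, its quasi-likelihood F-test compared the untreated lines, and p-values were adjusted by the Benjamini-Hochberg method over all 166430 peaks, with a threshold of 0.05. Since all 27 libraries share 1 estimate of the spread, that of the other groups enters these tests. TMM factors came from tested peaks outside chromosomes 6 and 8 and the mitochondrial genome. Chromosomes 6 and 8 were also scaled within themselves. Normalized counts are counts divided by the effective library size, times the geometric mean of the 27 sizes. GC offsets remove each library's smooth (loess) trend of log counts on the GC content of the peak. Peaks on unplaced contigs have no annotation, so statements on position, GC content and motifs rest on 146766 of the 146910 peaks. Positions are those of mm10 with GENCODE genes, and "near" a gene means the nearest annotated start to the summit.

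Named peaks were the 12 with the highest and the 12 with the lowest fold change outside chromosomes 6 and 8 (an average of 50 normalized counts or more in the higher line, no overlap between the lines, 1 peak per 1 Mb), the same among promoters, 3 each way on chromosomes 6 and 8, list promoters beyond a log2 fold change of 1, and the outermost windows and runs; other list genes, and the sequences shown, were chosen after their values were seen. The lines, gene lists and tests were chosen with earlier results of these data known. Which called peaks had passed the filter on counts through 1 line alone was counted after the values were seen. The fit was tested on simulated data. Same-numbered replicates did not deviate together (correlation -0.013 over 146910 peaks). Alternatives were DESeq2 1.42.0, other scalings and filters, GC and loess offsets, the replicate number as a block, the 4 libraries alone and each library left out. Python 3.11.15 with pandas 2.3.3 and numpy 2.4.6 was used for summaries.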

Additional observations from a re-analysis of the deposited data

How the results depend on the processing

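The main limits are 2 libraries per line and the shallower SOX2-FKBP libraries. Higher peaks outside chromosomes 6 and 8 (15811) were 9845 with DESeq2, 9742 with total counts, 2307 with at least 10 counts in every library (which tested fewer peaks), 10042 beyond a log2 fold change of 1, and 5417 to 11213 when a library was left out. Lower peaks (22553) were 2963 with at least 10 counts in every library and 11276 to 16698 with a library left out. Higher promoters (3763) were 2458 with GC offsets, 1068 with at least 10 counts in every library and 1224 to 2951 with a library left out. Lower promoters (1082) were 1651 with GC offsets, 1889 with the replicate block and GC offsets, 437 with at least 10 counts in every library and 538 to 759 with a library left out. The causes of these moves were not tested, and the range always had replicate 1 of SOX2-FKBP at its low end.

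With at least 10 counts in every library 405 peaks of chromosome 6 and 491 of chromosome 8 were called, and with a library left out 1122 to 1921 and 1109 to 1879. The median of chromosome 6 (0.52) was 0.74 over those with 10 counts or more throughout, and 0.35 to 0.62 with a library left out. The median of chromosome 8 (0.68) was 0.65 with DESeq2 size factors, with DESeq2 and with no filter, 0.70 with GC offsets and with loess offsets, 0.69 with the replicate block and GC offsets, 0.66 with the replicate block, 0.62 with TMM factors of all chromosomes, 0.60 with at least 10 counts in every library in a new fit and 0.82 in the same fit, 0.60 over peaks more than 2 kb from a start, 0.51 with total counts and 0.65 to 0.69 with a library left out. All of these were above 0.

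At Sox2 the log2 fold change was -0.27 with GC offsets, -0.28 with the replicate block and GC offsets, -0.035 with at least 10 counts in every library and -0.067 with loess offsets. At Nanog it was -0.14 with at least 10 counts in every library and -0.14 with loess offsets. The replicates share only a number, and the replicate block gave 17870 higher and 24451 lower peaks outside chromosomes 6 and 8. The share of higher calls among called promoters was 77.7%, and 59.8% with GC offsets and 64.6% with total counts.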
